A study of Homo sapiens with 9 samples.

Results

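Unedited PANC-1 cells, labelled WT, are described here by the RNA they made during a short pulse of labelling. Of the 9 libraries of the series, the 3 whose label gives the genotype WT were taken: Bru-seq WT replicates 1 and 2 and a single BruUV-seq WT library. PANC-1 is an established human line from an adenocarcinoma of the pancreatic duct. The WT cells are the control line and carried no guide RNA, with no statement on Cas9 in them, and the other 6 libraries come from KO C22 and KO C28, each a single clone made with CRISPR/Cas9 against the histone demethylase gene KDM6A (UTX). All cells grew in the same serum-containing medium, were labelled during 30 min with bromouridine at 2 mM and were collected at once (chase 0 h), and the BruUV-seq cells of each line also received 100 J/m2 of ultraviolet light. The labels do not say whether replicates came from separate cultures, so each p-value reflects just the spread among the libraries at hand, which may be technical.

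Bromouridine enters only RNA that is being made, so the captured RNA reports transcription across introns and exons, largely before decay removes a transcript. Ultraviolet lesions stop polymerases on the way through a gene, which moves signal toward gene starts. Pancreatic ductal adenocarcinoma arises from epithelium of the exocrine pancreas and is known for losses of CDKN2A and SMAD4 and for a range from epithelial (classical) to mesenchymal or basal-like states.

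The WT libraries held 22.45 and 25.73 M reads in genes for Bru-seq replicates 1 and 2 and 22.24 M for BruUV-seq, with 12.61% to 13.98% of reads outside genes. The 6 libraries of the clones ranged from 5.64 to 31.13 M reads in genes, and Bru-seq KO C28 replicate 2, the shallowest, had 46.46% of its reads outside genes. KDM6A itself, a gene of chromosome X (44873177 to 45112602, plus strand), was read at 1.13, 0.939 and 0.792 RPKM in WT, while KO C22 gave 0.969, 1.15 and 0.424 RPKM and KO C28 gave 1.20, 0.211 and 0.777 RPKM (Bru-seq replicates 1 and 2, then BruUV-seq). Reads over the whole gene do not test a small edit, so these values do not check the genotype labels. The difference of KDM6A between WT and the clones was 0.20 ± 0.44 (log2, SE) with an adjusted p of 0.911 in edgeR's quasi-likelihood test over 9 libraries.

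Levels are given in RPKM, reads scaled to counted gene length and to library size, which allows genes of different length to be compared. A gene was called transcribed at 0.5 RPKM or more in both Bru-seq WT libraries, silent below 0.05 RPKM in all 3 WT libraries, and weak otherwise. Of 47409 genes of at least 300 bases, 8920 (18.8%) were transcribed, 25962 (54.8%) silent and 12527 weak. Among 18976 protein-coding genes the numbers were 7236 (38.1%) transcribed, 6270 silent and 5470 weak. Long noncoding RNA genes were transcribed less often, 263 of 3621 (7.26%). The share of protein-coding genes that were transcribed was 19.1% for genes of 300 to 1500 bases, rose to 45.7% for those of 20000 to 100000 bases and was 14.4% for those of 300000 bases or more. By chromosome it ran from 24.6% on chromosome 22 and 28.1% on X to 46.4% on chromosome 10 and 47.0% on chromosome 5. In the silent class short genes carry a wide limit, because 3 reads already reach 0.05 RPKM in a gene of 2.01 to 2.36 kb.

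Promoters of transcribed and silent genes differed in their letters. In the 250 bases before the start, taken from RefSeq (GRCh38.p14) for 15150 of 18938 protein-coding genes, the ratio of observed to expected CpG dinucleotides had a median of 0.85 in 6104 transcribed genes, 0.77 in 4304 weak genes and 0.33 in 4742 silent genes. A ratio above 0.6 was found in 87.7%, 70.0% and 29.6% of them. The TATA-box letters TATAAA, read on the gene's strand, stood in 3.4% of transcribed, 4.0% of weak and 13.0% of silent promoters, but in 9.2% of the 563 promoters of genes at 5 to 20 RPKM and 10.0% of the 80 above 20 RPKM. The contrast is shown for CD44, a hyaluronan receptor transcribed at 39.0, 64.4 and 39.7 RPKM (Bru-seq replicates 1 and 2 and BruUV-seq, the order kept below), and PRSS1, the trypsinogen gene of acinar cells, with no read in any of the 3 libraries. The CD44 stretch lies at chr11:35138921-35139170 on the plus strand and that of PRSS1 at chr7:142749222-142749471 on the plus strand, both GRCh38.p14 and 5′ to 3′, with CpG dinucleotides in capitals.
CD44: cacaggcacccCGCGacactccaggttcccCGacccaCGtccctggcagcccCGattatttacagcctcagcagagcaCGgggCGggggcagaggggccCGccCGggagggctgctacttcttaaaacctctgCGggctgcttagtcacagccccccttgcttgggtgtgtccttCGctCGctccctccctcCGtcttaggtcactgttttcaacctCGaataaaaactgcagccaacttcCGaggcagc
PRSS1: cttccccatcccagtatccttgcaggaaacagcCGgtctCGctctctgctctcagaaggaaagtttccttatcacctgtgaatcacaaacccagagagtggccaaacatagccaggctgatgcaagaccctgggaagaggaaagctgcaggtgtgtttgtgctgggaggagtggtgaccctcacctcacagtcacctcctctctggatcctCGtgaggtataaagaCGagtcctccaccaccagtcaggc
CD44 holds 15 CpG dinucleotides here (ratio 0.64) and PRSS1 holds 4 (ratio 0.22). Of 21 acinar marker genes with a promoter in the table, 4.8% had a ratio above 0.6, and of 305 olfactory receptor genes 1.3%, against 64.4% of all promoters.

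**Figure D1:**
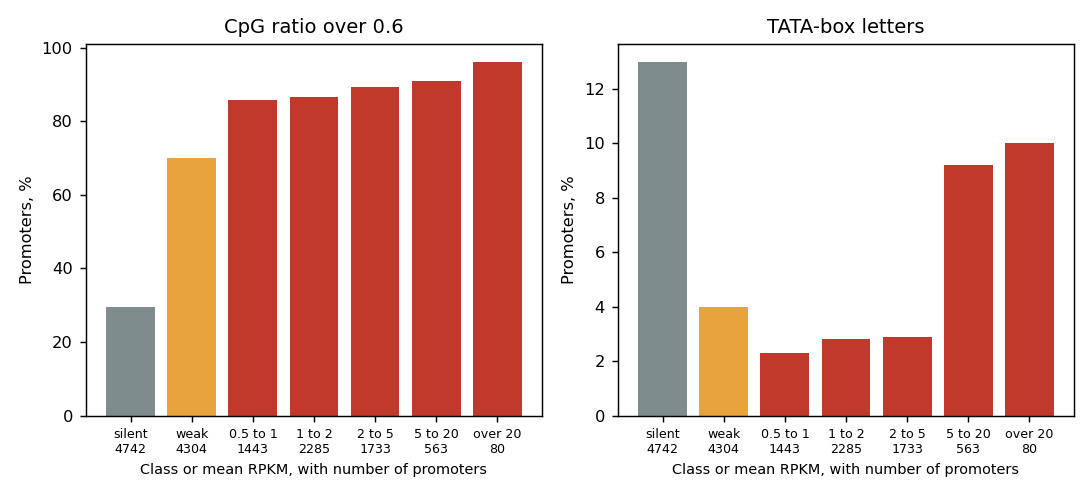
Share of promoters (percent, vertical axes from 0) with a CpG ratio above 0.6 (left) and with the letters TATAAA (right), by class of WT transcription and, for transcribed genes (red), by mean RPKM of the Bru-seq WT libraries; the number of promoters stands under each bar. CpG-rich promoters rose from 29.6% of silent to 96.2% of the most transcribed genes, while TATAAA was found most often at both ends, in 13.0% of silent promoters and in 10.0% of those above 20 RPKM.

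Reads were spread over many genes. In the WT libraries 1251, 1136 and 1398 genes held 50% of the reads in genes. The nuclear noncoding RNA MALAT1 took the largest share, 0.907% (95% exact binomial interval 0.904% to 0.911%), 1.833% (1.828% to 1.838%) and 1.699% (1.694% to 1.704%), intervals that cover counting error only. Its level was 912, 1833 and 1726 RPKM. The next gene by mean Bru-seq RPKM was RPS16, for a protein of the small ribosomal subunit, at 323, 182 and 422 RPKM. TM4SF1, a tetraspanin-like surface protein abundant in pancreatic cancer, stood at 114, 229 and 154 RPKM. NEAT1, the noncoding RNA that builds paraspeckles, stood at 21.6, 270.0 and 92.9 RPKM, a log2 ratio of 3.64 between the Bru-seq replicates. The other leading genes were ERRFI1, a feedback inhibitor of EGFR, SLC38A2, a glutamine transporter, ZFP36, an RNA-binding protein that speeds mRNA decay, CYR61 (now CCN1), a matrix protein and YAP target, KLF6, MCL1, VIM, TMSB10, HNRNPA2B1, PHLDA1 and DKK1. The secreted WNT inhibitor DKK1 was read at 78.9, 46.3 and 267 RPKM and the actin-binding TMSB10 at 120.5, 38.7 and 71.6 RPKM. Of these 15 genes TMSB10, VIM, RPS16, HNRNPA2B1 and DKK1 were higher in replicate 1 and the other 10 in replicate 2.

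PANC-1 transcribed simple-epithelial keratins beside mesenchymal genes. KRT18 was read at 14.2, 10.7 and 36.8 RPKM, KRT19, the ductal keratin, at 14.6, 7.11 and 17.8 RPKM, and KRT8, the partner of KRT18, at 1.93, 1.83 and 5.11 RPKM over a counted length of 52688 bases. VIM, the mesenchymal intermediate filament, was higher than all 3 keratins in every library, at 102, 62.1 and 100.1 RPKM. Other epithelial markers were weak, the adhesion gene CDH1 (E-cadherin) at 0.047, 0.097 and 0.236 RPKM, EPCAM, also an adhesion gene, at 0.177, 0.323 and 0.348 RPKM and the keratin KRT7 at 0.071, 0.239 and 0.266 RPKM. Of 47 epithelial genes 12 were transcribed, 15 silent and 20 weak, where 18.8% of all genes and 38.1% of protein-coding genes were transcribed and 54.8% of all genes were silent. The silent epithelial genes include CDH3, CRB3, EHF and the splicing regulator ESRP1. Among list members not named above, SPINT2, CTNND1, F11R and TJP1 were the highest. Of 38 mesenchymal genes 12 were transcribed, 14 silent and 12 weak. The repressor ZEB1 was transcribed at 1.30, 1.34 and 0.607 RPKM, CD44 was high, and NT5E and S100A4 were transcribed. CDH2 (N-cadherin) was weak at 0.108, 0.080 and 0.114 RPKM, while ZEB2, SNAI2 and FN1 (fibronectin) were silent, each below 0.03 RPKM. Both lists had shares of transcribed genes, 25.5% and 31.6%, between that of all genes and that of protein-coding genes.

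Transcription factors of the pancreatic epithelium were present in part. The share transcribed was 23.7% for these factors and 8.82% for ductal genes, where it was 38.1% for protein-coding genes and 18.8% for all genes. SOX9, the factor of duct cells and progenitors, was read at 21.1, 11.9 and 17.1 RPKM and FOXA2 at 5.68, 1.89 and 6.76 RPKM. PDX1 (0.316, 0.332 and 0.519 RPKM) and GATA6 (0.136, 0.414 and 0.229 RPKM) were weak, and HNF4A was silent. PTF1A, which drives the acinar fate, had no read in the 3 libraries, where 3 reads would give 0.060, 0.0521 and 0.0612 RPKM. Of 38 pancreatic factors 9 were transcribed, with HES1, TEAD1, ONECUT3 and KLF5 next in level. Of 34 ductal genes only KRT19, SOX9 and ANXA4 were transcribed, and the chloride channel CFTR, the mark of working duct cells, was silent at 0.008, 0.001 and 0.001 RPKM.

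Programmes of differentiated pancreatic cells were nearly absent, where 38.1% of protein-coding genes and 18.8% of all genes were transcribed. Of 29 acinar genes 1 was transcribed, CUZD1 (1.49, 0.837 and 0.527 RPKM), and 5 were weak, and the digestive enzyme genes CPA1, PNLIP, CELA3A, AMY2A and CTRB1 all stayed below 0.03 RPKM. Of 35 islet genes none was transcribed and 10 were weak, among them SCG5 (0.799, 0.396 and 0.406 RPKM) and SYP (0.253, 0.641 and 0.763 RPKM). INS had no read, but it is 530 bases long, so 3 reads would give 0.189 to 0.222 RPKM and its limit is not below the silent threshold.

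Most markers of other cell types were at or near 0, where 38.1% of protein-coding genes and 18.8% of all genes were transcribed. No gene of the fibroblast (16), endothelial (13), leukocyte (24), hepatocyte (18), intestinal (15) or muscle (17) lists was transcribed. Their summed levels were 0.211, 0.739 and 0.454 RPKM for fibroblasts, 0.322, 0.442 and 0.513 RPKM for endothelial cells and 1.98, 3.74 and 2.32 RPKM for leukocytes, the last mostly from CD68, whose entry in the table counts too few bases to be classed. PTPRC and CD3E of leukocytes, PECAM1 and CDH5 of endothelium, and DCN, LUM and PDGFRA of fibroblasts were silent. The erythroid list had 2 transcribed members, TFRC (the transferrin receptor, 5.43, 3.69 and 6.84 RPKM) and EPOR, with no read over HBB, HBA1 or HBA2. MITF (0.595, 0.580 and 0.806 RPKM) was the 1 transcribed melanocyte gene, with no read over SOX10, and MAP2 (1.18, 0.921 and 0.826 RPKM) the 1 transcribed neuronal gene. Of 32 cancer-testis and germline genes 4 were transcribed: PRAME (2.55, 2.21 and 3.68 RPKM), the oncofetal RNA-binding genes IGF2BP3 (2.83, 2.70 and 3.03 RPKM) and LIN28B (1.41, 0.609 and 0.691 RPKM), and LAGE3. As in any bulk sample, fewer cells with a programme and less RNA per cell cannot be told apart.

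**Figure D2:**
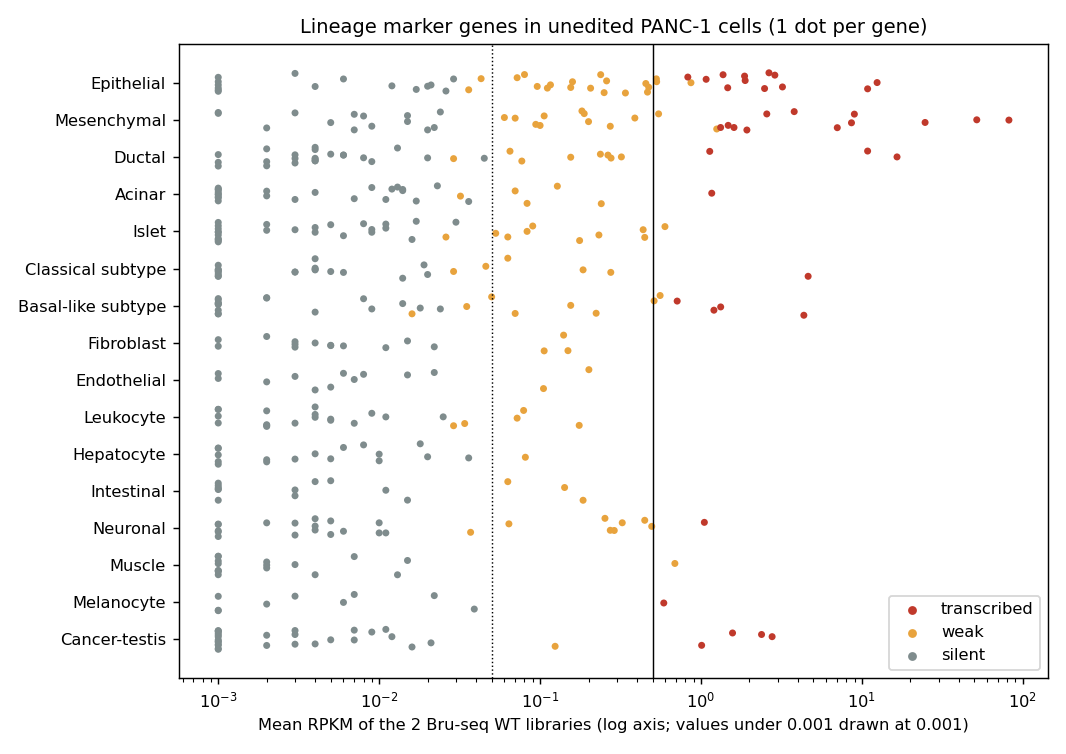
Each dot is a gene of a marker list, placed by its mean RPKM in the 2 Bru-seq WT libraries (horizontal log axis) and coloured by class, with the solid line at 0.5 RPKM and the dotted line at 0.05 RPKM. Transcribed genes (red) number 12 of 47 in the epithelial and 12 of 38 in the mesenchymal row. The islet, fibroblast, endothelial, leukocyte, hepatocyte, intestinal and muscle rows hold none.

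Neither tumour subtype list was broadly transcribed. The shares were 4.0% for classical and 13.8% for basal-like genes, where 38.1% of protein-coding genes and 18.8% of all genes were transcribed. Of 25 classical genes AGR2, a protein disulfide isomerase of secretory epithelium, alone passed (4.07, 5.19 and 4.05 RPKM), and TFF1, CEACAM6, LYZ and CLRN3 were silent. Of 29 basal-like genes 4 passed, the receptor tyrosine kinase EPHA2 (3.73, 4.98 and 11.5 RPKM), the transporters SLC16A1 and SLC2A1, and the EGFR ligand AREG. KRT6A, KRT17, LY6D and TP63 were silent, and S100A2 (0.789, 0.325 and 1.23 RPKM) and KRT15 (0.264, 0.758 and 0.965 RPKM) were weak.

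Most genes that drive pancreatic cancer were transcribed, 23 of 32 (71.9%), where 38.1% of all protein-coding genes were. SMAD4, the shared mediator of TGF-beta signals, stood at 1.89, 1.30 and 1.10 RPKM, values that say nothing of mutations. SMAD3 (7.996, 14.5 and 15.1 RPKM) and MYC (9.83, 7.01 and 24.6 RPKM) were the highest. CDKN2A and CDKN2B, the cyclin-dependent kinase inhibitor genes next to each other on chromosome 9, had 0 reads in all 3 libraries. The limit set by 3 reads is 0.00364 to 0.00428 RPKM for CDKN2A, which spans 21967753 to 21995301 on the minus strand, and 0.0155 to 0.0182 RPKM for CDKN2B. Genes on both sides, looked at after these values were seen, were transcribed: KLHL9 at 3.17, 2.61 and 5.21 RPKM and MIR31HG at 15.9, 16.9 and 11.9 RPKM on the side of lower coordinates, and DMRTA1 at 2.08, 1.31 and 1.47 RPKM on the other. MTAP, between MIR31HG and CDKN2A, was weak at 0.045, 0.048 and 0.216 RPKM, counted over 12409 of its 135109 bases. An absent locus and an untranscribed locus cannot be told apart from these counts.

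Growth factor receptor and ligand genes were transcribed in 30.2% of cases, between the 18.8% of all genes and the 38.1% of protein-coding genes. EGFR (3.84, 3.87 and 3.64 RPKM) and MET (2.60, 2.46 and 1.48 RPKM) were among 13 transcribed genes of 43 in that list, with the ligands TGFA, AREG, EREG and HBEGF, while ERBB2 was weak (0.232, 0.302 and 0.577 RPKM) and EGF, BTC, EPGN and ALK were silent. In the TGF-beta list 22 of 42 were transcribed, from the ligand TGFB2 (0.629, 1.13 and 1.01 RPKM) and the receptor TGFBR2 (4.13, 4.08 and 3.02 RPKM) to the target ID1 (25.95, 6.59 and 34.3 RPKM). In the WNT list 16 of 46 were transcribed, led by DKK1, with CTNNB1 (beta-catenin) at 3.53, 5.37 and 3.29 RPKM, but the feedback target AXIN2 was weak at 0.015, 0.050 and 0.144 RPKM and LGR5 silent, and none of 19 WNT ligand genes was transcribed. Among NOTCH genes 12 of 28 were transcribed, with NOTCH2 at 1.34, 0.881 and 1.13 RPKM and NOTCH1 weak at 0.035, 0.098 and 0.25 RPKM. The hedgehog list had 0 of 16 transcribed genes, SHH at 0.025, 0.239 and 0.211 RPKM and GLI1 at 0.006, 0.094 and 0.123 RPKM. The Hippo list stood at the other end, with 20 of 25 transcribed, the coactivators YAP1 (4.48, 3.53 and 3.58 RPKM) and WWTR1 (7.68, 12.9 and 7.29 RPKM) and the targets CYR61 (82.9, 99.9 and 438 RPKM) and CTGF (8.25, 20.2 and 35.0 RPKM).

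Immune signalling genes were transcribed in shares on either side of the 38.1% of protein-coding genes, 41.2% for the NF-kB and chemokine list and 31.0% for the interferon and antigen presentation list. Of 34 NF-kB and chemokine genes 14 were transcribed: CCL2, which draws monocytes, at 6.78, 13.0 and 32.3 RPKM, IL18 at 3.23, 8.03 and 4.04 RPKM, CXCL1, a CXCR2 ligand, at 2.37, 1.00 and 2.06 RPKM and CXCL8 at 0.744, 4.22 and 1.02 RPKM. CSF3, CXCL5, CXCL10 and IL1A were silent. Among 42 interferon and antigen presentation genes 13 were transcribed. B2M, the shared light chain of class I molecules, stood at 13.1, 8.25 and 13.2 RPKM, while HLA-B, counted over 75085 bases, was weak at 0.061, 0.073 and 0.105 RPKM. HLA genes are near-identical copies, so reads may have been split among them. The class II transactivator CIITA and HLA-DRA, HLA-DPA1 and HLA-DQA1 were silent.

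Families of general cell functions were transcribed in larger part than the 38.1% of all protein-coding genes. Ribosomal protein genes passed in 75 of 76 cases, with RPS10, counted over too few bases, the exception. Translation initiation factors passed in 45 of 51, proteasome subunits in 42 of 48, mediator subunits in 23 of 28 and stress and chaperone genes in 32 of 35. The hosts of small nucleolar RNAs named SNHG passed in 18 of 24, and KRAB-type and other zinc fingers named ZNF in 289 of 474. Glycolysis and hypoxia genes passed in 25 of 35, with GAPDH at 20.3, 6.61 and 33.1 RPKM, and cholesterol and lipid genes in 22 of 28, with the desaturase SCD at 14.6, 54.0 and 40.5 RPKM.

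Other families ranged from wholly untranscribed to close to 50% transcribed, beside 54.8% of all genes silent. None of 378 olfactory receptor, 87 keratin-associated protein, 45 defensin or 20 UGT genes was transcribed. Among 55 keratins 5 were transcribed, among 44 collagens 4, and none of 17 mucins and 23 cadherins. The collagen COL11A1 was read at 3.20, 2.87 and 1.84 RPKM. Of 22 FGF ligands 16 were silent, but FGF5 stood at 14.0, 17.7 and 13.5 RPKM. HOX genes, which set position along the body axis, were transcribed in 18 of 37 cases, HOXB6 at 12.5, 22.2 and 35.8 RPKM, HOXB3 at 8.46, 25.2 and 21.6 RPKM and HOXC10 at 9.28, 18.4 and 27.8 RPKM. Among integrins 7 of 25 passed, led by ITGB1 (10.5, 21.5 and 13.7 RPKM) and ITGA2, and of S100 genes 5 of 20, led by S100A6 (63.1, 49.0 and 95.5 RPKM). Of 374 solute carriers 100 were transcribed, and of 55 cytochrome P450 genes 4, the sterol demethylase CYP51A1 being the highest (3.78, 4.37 and 2.92 RPKM).

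Most transcribed genes had similar levels in the Bru-seq WT replicates, and a minority differed widely. Over all 47409 genes log2 RPKM correlated at 0.932 (Pearson, across genes, which are not independent), and over the 8920 transcribed genes at 0.787 (Spearman 0.727). The transcribed class leaves out genes that reached 0.5 RPKM in 1 replicate only. Over the 11784 genes at 0.5 RPKM or more in either replicate the Pearson correlation was 0.678. Of these genes 72.8% lay within 2-fold, and 902 (7.65%) differed 4-fold or more. Of the transcribed genes 83.7% lay within 2-fold between replicates, the median size of the log2 ratio was 0.444, and 190 genes differed 4-fold or more, 115 of them higher in replicate 1. The share within 2-fold rose with gene length, from 73.0% of genes under 5000 bases to 96.1% of those of 100000 to 300000 bases, and fell with level, from 95.7% at 0.5 to 1 RPKM to 54.0% of the 113 genes above 20 RPKM. Both libraries had to reach 0.5 RPKM, which by itself limits the ratio in the lowest of these classes. The chi-square of their counts per degree of freedom over 16246 genes was 200.9, so the files are not the same library deposited again. Replicate 1 correlated more with Bru-seq KO C28 replicate 1 (0.882) and KO C22 replicate 1 (0.840) than with WT replicate 2.

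**Figure D3:**
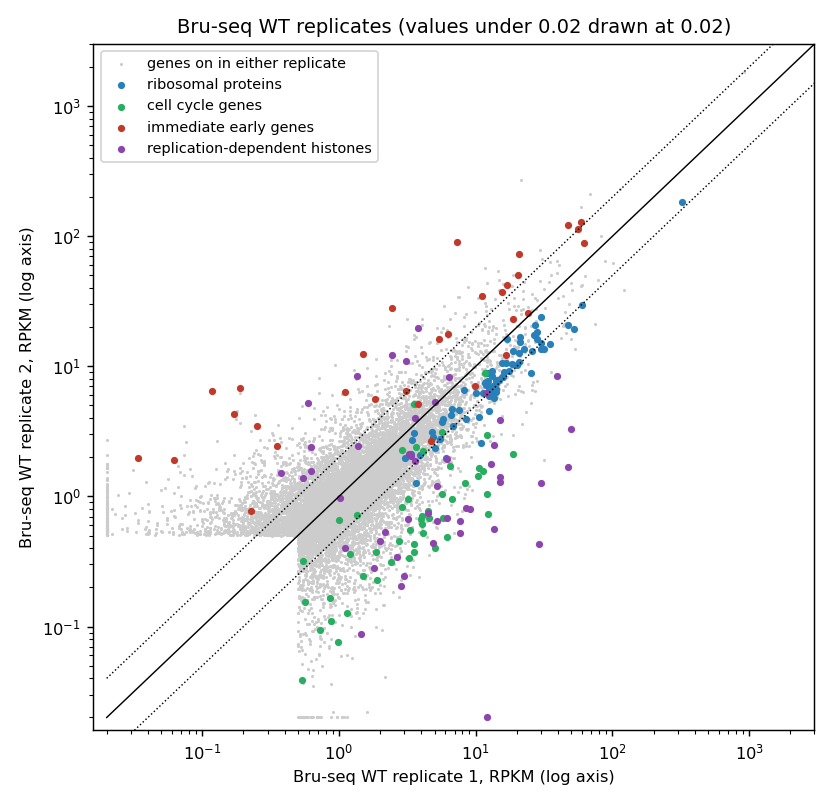
RPKM in Bru-seq WT replicate 1 (horizontal) against replicate 2 (vertical), both log axes, for 11784 genes at 0.5 RPKM or more in either replicate, with the line of equality and dotted lines at 2-fold. Cell cycle genes (green) and most replication-dependent histones (purple) lie below the line, ribosomal proteins (blue) below but closer to it, and immediate early genes (red) mostly above.

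Cell cycle genes were lower in replicate 2 than in replicate 1. MKI67, the proliferation marker, was read at 10.6 RPKM in replicate 1, 1.65 in replicate 2 and 13.3 in BruUV-seq. CDK1, the mitotic kinase, gave 18.9, 2.11 and 7.34 RPKM, TOP2A, the topoisomerase of dividing cells, 12.1, 1.05 and 8.62 RPKM, CCNB1 (cyclin B1) 11.3, 1.56 and 8.54 RPKM, and RRM2, a subunit of the enzyme that makes deoxyribonucleotides, 12.2, 0.739 and 11.7 RPKM. In each of these 5 genes replicate 2 was the lowest library, and BruUV-seq WT lay nearer to replicate 1 on the log2 scale. Of 48 list members at 0.5 RPKM or more in either replicate, 47 were higher in replicate 1 and 39 of them by 2-fold or more, where 54.7% of all 11784 such genes were higher in replicate 1 and 14.0% by 2-fold or more. The median log2 ratio of replicate 2 over replicate 1 was -2.48 for the list and -0.10 for all genes, and BruUV-seq stood at -0.32 against replicate 1 and 2.20 against replicate 2. The exception was CCND1 (cyclin D1, 3.52, 5.16 and 10.5 RPKM). With a single pair of replicates there is no test of this difference. Only 29 list members reached 0.5 RPKM in both replicates. The rest of the 48 passed through 1 replicate alone, so the choice of genes fixed their direction. The 11784 genes were chosen in the same way.

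Most histone genes that are transcribed in S phase were also lower in replicate 2. HIST1H4L gave 29.2, 0.429 and 9.49 RPKM (236, 4 and 75 reads), the largest replicate ratio toward replicate 1 among named genes, followed by HIST1H4C (47.3, 1.68 and 16.3 RPKM), HIST1H1B (29.8, 1.26 and 49.3 RPKM), HIST1H2AH (13.5, 0.565 and 5.18 RPKM) and RRM2. Of 47 such histone genes 35 were higher in replicate 1, 30 of them by 2-fold or more, and the median log2 ratio was -2.21. The other 12 were higher in replicate 2, 8 of them by 2-fold or more, where 13.3% of all genes were, with HIST1H2AC at 3.78, 19.5 and 9.31 RPKM over a counted length of 14958 bases. Of the 47 histone genes 38 reached 0.5 RPKM in both replicates, and the choice of genes fixed the direction of the rest. Ribosomal protein genes were higher in replicate 1 in 76 of 76 cases but by less, with a median of -0.83, SNHG host genes in 19 of 19 (-1.20) and proteasome genes in 39 of 43 (-0.76).

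The promoters of the cell cycle and histone genes share letters that the lists did not use. The NF-Y word CCAAT, searched on both strands in the 250 bases before the start, was found in 67.5% of 40 cell cycle promoters and 85.7% of 56 replication histone promoters, against 34.7% of all 15150. The E2F words TTTCCCGC, TTTCGCGC, TTTGCCGC and TTTGGCGC, on both strands, stood in 27.5% of the cell cycle promoters against 3.7% of all, and the CHR word TTTGAA, on both strands, in 27.5% against 10.7%. TATAAA stood in 58.9% of the histone promoters against 6.6% of all. The words were searched separately, and a match is a description of letters, not a bound site. The promoters of CCNB1 (chr5:69166900-69167149, plus strand), RRM2 (chr2:10122489-10122738, plus strand) and HIST1H4L (chr6:27873535-27873784, minus strand), all GRCh38.p14, are shown 5′ to 3′ because these genes carried the replicate difference, with CCAAT in capitals and, in HIST1H4L, TATAAA as well.
CCNB1: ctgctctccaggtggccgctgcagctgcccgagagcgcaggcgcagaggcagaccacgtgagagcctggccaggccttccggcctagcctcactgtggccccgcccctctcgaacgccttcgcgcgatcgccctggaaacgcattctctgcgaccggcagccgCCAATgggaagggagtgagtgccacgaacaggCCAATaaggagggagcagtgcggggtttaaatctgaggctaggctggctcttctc
RRM2: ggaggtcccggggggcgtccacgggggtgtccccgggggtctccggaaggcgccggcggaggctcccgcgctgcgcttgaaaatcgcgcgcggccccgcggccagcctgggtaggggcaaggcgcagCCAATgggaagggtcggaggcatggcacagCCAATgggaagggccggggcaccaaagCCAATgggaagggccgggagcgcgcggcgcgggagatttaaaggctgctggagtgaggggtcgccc
HIST1H4L: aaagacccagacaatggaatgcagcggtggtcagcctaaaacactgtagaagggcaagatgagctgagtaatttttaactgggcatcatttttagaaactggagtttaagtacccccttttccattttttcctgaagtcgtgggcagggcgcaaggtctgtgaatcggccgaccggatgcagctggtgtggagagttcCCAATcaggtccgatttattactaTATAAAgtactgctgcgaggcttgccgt
CCNB1 holds CCAAT 2 times and RRM2 3 times, each time on the strand of the gene, and HIST1H4L holds CCAAT 1 time and TATAAA 1 time.

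Immediate early genes, which respond to growth factors and stress within minutes, lay the other way. EGR1 was read at 20.8, 72.5 and 66.9 RPKM, FOS at 5.36, 16.3 and 26.7 RPKM, JUN at 16.8, 41.9 and 176 RPKM and ATF3 at 0.189, 6.78 and 2.53 RPKM. DUSP5, a phosphatase that switches off ERK, stood at 7.34, 90.0 and 21.5 RPKM, and EGR2 at 0.118, 6.50 and 0.648 RPKM had the largest ratio toward replicate 2 among named genes. Of 31 list members at 0.5 RPKM or more in either replicate, 28 were higher in replicate 2, 24 of them by 2-fold or more, where 45.3% of all such genes were higher in replicate 2 and 13.3% by 2-fold or more. The median log2 ratio was 1.57. Of the 31 members 23 reached 0.5 RPKM in both replicates, and the choice of genes fixed the direction of the rest. MYC, KLF10 and IER5, the last named after its values were seen, were the 3 members higher in replicate 1. The other genes with the largest ratios toward replicate 2 were SERPINA3 (0, 1.53 and 0.060 RPKM), ITGA10 (0.190, 6.27 and 0.673 RPKM) and EGR4 (0, 1.25 and 0.410 RPKM). The serum response element letters known as the CArG box, searched on both strands, were found in 2 of 24 immediate early promoters (8.3%) and 1.1% of all, and a CArG box may hold the letters TATAAA within it. EGR1 has 2 of them, in capitals below, at chr5:138465229-138465478 on the plus strand (GRCh38.p14), 5′ to 3′.
EGR1: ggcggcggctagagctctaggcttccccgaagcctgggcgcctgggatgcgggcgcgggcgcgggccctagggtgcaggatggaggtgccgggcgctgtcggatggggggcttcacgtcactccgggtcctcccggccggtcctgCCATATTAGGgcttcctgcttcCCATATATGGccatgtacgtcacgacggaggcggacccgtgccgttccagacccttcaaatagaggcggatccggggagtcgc

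Among families, 6 of 53 clustered protocadherin genes reached 0.5 RPKM in either replicate. All 6 were higher in replicate 2, with a median log2 ratio of 3.16, where 45.3% of all such genes were higher there. Only PCDHGC3 reached 0.5 RPKM in both replicates. The others passed through replicate 2 alone, so the choice of genes fixed their direction. Further lists were higher in replicate 2 by less than the immediate early genes. Their genes too were chosen at 0.5 RPKM in either replicate, which fixed the direction of those that passed through 1 alone. The median log2 ratio of replicate 2 over replicate 1 was 0.98 for 19 NF-kB and chemokine genes, 0.84 for 21 interferon and antigen presentation genes, 0.72 for 15 mesenchymal genes, 0.71 for 25 cholesterol and lipid genes and 0.71 for 28 TGF-beta genes. The sterol enzyme gene HMGCS1 was read at 5.31, 16.7 and 6.27 RPKM. Lists with medians nearer to that of all genes (-0.10) included the growth factor receptors (0.01), Hippo (-0.13), NOTCH (-0.17), glycolysis and hypoxia (-0.19) and pancreatic cancer drivers (-0.20). In KO C22 the cell cycle list had a median of -0.79 (all genes -0.16), and in KO C28 its median of -1.05 was close to that of all genes (-0.90). Immediate early genes gave -0.08 in KO C22 and -0.39 in KO C28. Other groups that were lower in WT replicate 2 were also lower in replicate 2 of KO C22. The medians there were -2.17 for replication histones, -1.80 for SNHG host genes, -1.26 for ribosomal protein genes and -0.74 for proteasome genes. In KO C28 they were 0.68, -1.53, 0.78 and 0.14. The KO C28 medians rest on its Bru-seq replicate 2. Over genes transcribed in WT, that library correlated more with BruUV-seq KO C22 (0.779) than with KO C28 replicate 1 (0.646).

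**Figure D4:**
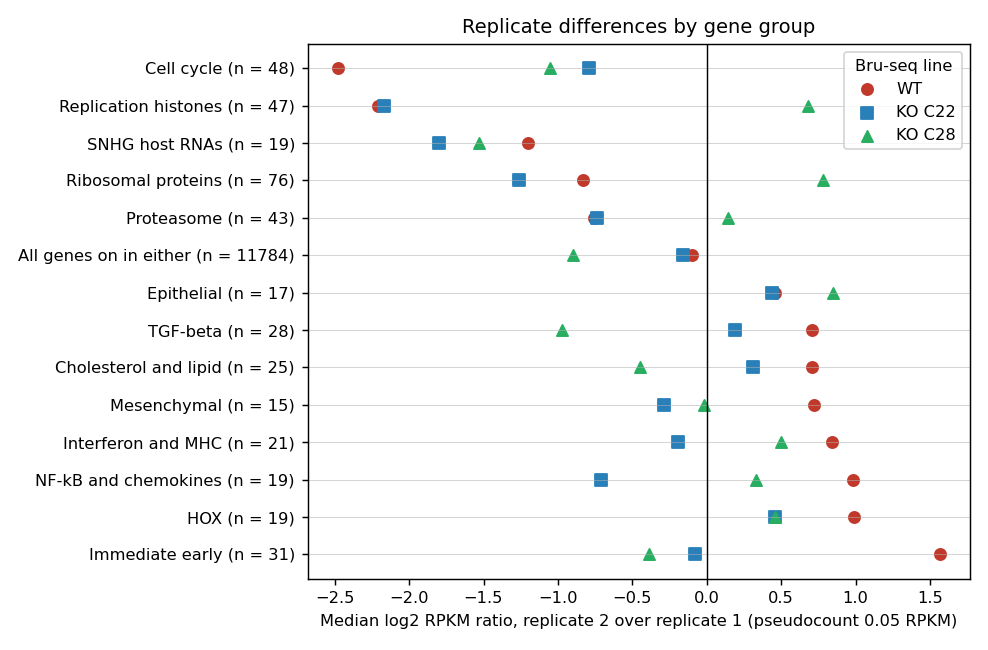
Median log2 ratio of RPKM in replicate 2 over replicate 1 (horizontal axis) for gene groups, with the number of genes, in the WT, KO C22 and KO C28 Bru-seq pairs. Among the 14 groups drawn, the cell cycle list is lowest in WT at -2.48 and the immediate early list highest at 1.57, and all genes together lie at -0.10.

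BruUV-seq WT kept the gene set and moved the levels by gene length. Over transcribed genes it correlated with Bru-seq replicates 1 and 2 at 0.783 and 0.748 across genes. The median log2 ratio of BruUV-seq over the mean of the Bru-seq replicates was 0.39 for genes under 5000 bases and 0.47 for those of 5000 to 20000 bases, and fell to 0.03, -0.17, -0.32 and -0.42 through the length classes up to 300000 bases and more. The largest ratios up belonged to GDF15, a stress cytokine of the TGF-beta family (4.02, 23.2 and 202 RPKM), LINC01836 (0.270, 0.202 and 3.11 RPKM), the vasodilator peptide ADM (11.6, 8.59 and 111 RPKM), the cytoskeletal linker PLEC (0.853, 2.33 and 17.3 RPKM) and IER2 (3.76, 5.15 and 44.3 RPKM). The largest ratios down belonged to ASTL (0, 1.09 and 0.005 RPKM), EGR3 (0.252, 3.46 and 0.132 RPKM), LMCD1 (0.934, 10.3 and 0.819 RPKM), NR4A3 (0.062, 1.90 and 0.115 RPKM) and EGR2. In each of these 5 Bru-seq replicate 2 alone was high, and BruUV-seq lay close to replicate 1 in LMCD1, NR4A3 and ASTL. With 1 BruUV-seq library there is no replicate check.

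Set against the clones, WT stood apart in few genes that passed the test. In edgeR's quasi-likelihood test of WT against the mean of KO C22 and KO C28 over all 9 libraries, with the assay as a covariate, 44 of 23443 genes (0.188%) had an adjusted p under 0.05, 18 (0.0768%) higher and 26 (0.111%) lower in WT, and 1754 had an unadjusted p under 0.05. After the log ratios were corrected for gene length the split became 41 higher and 18 lower of 59, with 32 genes shared. The common coefficient of variation was 70.9%, which includes the replicate differences above. In all 44 the WT libraries lay wholly above or below the clones within each assay, which held for 1739 genes tested (7.42%). Leaving out single libraries moved the count from 6 without BruUV-seq WT, and 16 and 10 without Bru-seq WT replicates 1 and 2, to 114 without Bru-seq KO C28 replicate 2, with 19 and 22 without BruUV-seq KO C22 and KO C28.

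The noncoding RNA AFAP1-AS1 (chromosome 4, 7754090 to 7778928, plus strand) separated WT most fully. It had 1158, 1602 and 2464 reads in the WT libraries (Bru-seq replicates 1 and 2, then BruUV-seq), while the KO C22 libraries held 2, 1 and 0 reads and those of KO C28 held 1, 0 and 1. The fitted log2 difference, which rests on a prior count where reads are this few, was 10.31 with an adjusted p of 1.83e-05 in edgeR. FOS was 4.22 ± 0.59 (log2, SE) higher in WT, with 21.7 and 68.9 CPM in Bru-seq WT against 0.44 to 2.76 in the Bru-seq libraries of the clones, and 97.9 CPM against 12.4 and 32.4 in BruUV-seq. FOS and DUSP6 were the members of the 33 immediate early genes that passed, both higher in WT, and the median of that list was 1.16 against -0.04 for all genes tested. Both genes were higher in WT replicate 2 than in replicate 1. Without Bru-seq WT replicate 2 the difference of FOS was 3.28 (adjusted p 0.0489 in edgeR) and that of DUSP6 2.24, which no longer passed (0.157), while without replicate 1 both passed (0.0309). DUSP6 was also lost without BruUV-seq WT (0.106) and without BruUV-seq KO C22 (0.0727), and with the Bru-seq libraries only neither passed (0.147 for FOS and 0.222 for DUSP6). The other 8 named genes higher in WT were FMN1, a formin that builds actin cables (3.87 ± 0.57), the hyaluronan link protein HAPLN3 (3.77 ± 0.49), the sorting receptor SORL1 (3.72 ± 0.62), the carboxylesterase CES1 (3.65 ± 0.56), RHOH, PKDCC, MAGI2-AS3 and the junction scaffold MPDZ (3.08 ± 0.33).

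The 10 named genes lower in WT were led by HHIP. This gene, whose product binds and blocks hedgehog ligands, gave 0.14, 0.08 and 0.12 CPM in WT, 12.9, 20.1 and 5.46 CPM in KO C22 and 6.03, 1.54 and 4.47 CPM in KO C28, a log2 difference of -5.87 ± 0.88 (adjusted p 0.0244). HMCN1, for the matrix protein hemicentin, gave 3.34, 2.29 and 0.25 CPM in WT and 19.6 to 117 CPM in the clones (-5.25 ± 0.69). SIPA1L2 (-4.45 ± 0.54), the proteoglycan gene SPOCK1 (-4.03 ± 0.45), the laminin chain LAMB3 (-3.97 ± 0.42), the carboxypeptidase CPA4 (-3.87 ± 0.40), the semaphorin receptor PLXNA2 (-3.82 ± 0.63), the cadherin CDH6 (-3.79 ± 0.60), PLPP4 (-3.61 ± 0.38) and the metalloprotease ADAMTS6 (-3.52 ± 0.36) followed. In LAMB3 the WT libraries held 2.57, 2.79 and 2.71 CPM and the clones 20.4 to 65.1 CPM. Each clone is 1 clone of cells, so a difference from WT and a difference that any single-cell clone carries cannot be told apart.

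**Figure D5:**
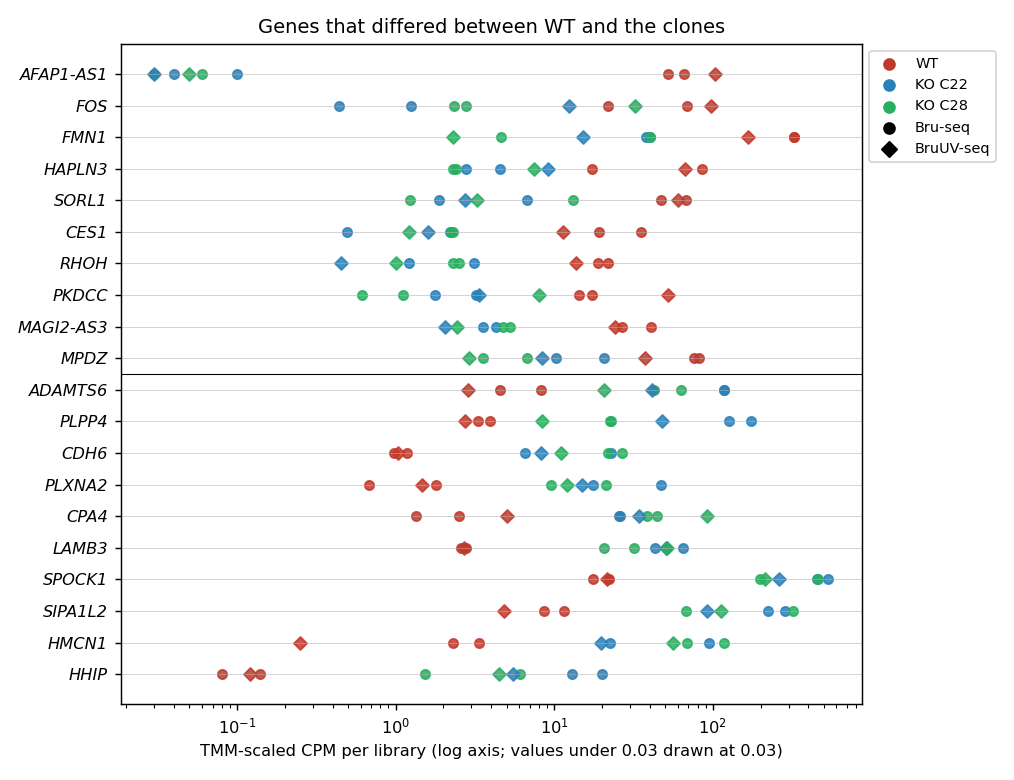
TMM-scaled CPM (horizontal log axis) of the 10 named genes higher and the 10 lower in WT, 1 point per library, with Bru-seq as circles and BruUV-seq as diamonds. Within each assay the WT points (red) lie to the right of both clones in the upper 10 genes and to the left in the lower 10, as for AFAP1-AS1 with 52.2 and 65.6 CPM in Bru-seq WT against 0.1 or less in the clones.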

How the data were processed

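The deposited tables give, for each of 57733 genes, an estimated count of reads (not whole numbers in part) and an RPKM value. Per the submitters' processing notes the build was hg38 and the tools were CASAVA 1.8.2, Bowtie2 2.3.3, STAR 2.5.3a and bedtools 2.16.2; their roles and the annotation release are not given in the sources used here. The deposited counted length leaves out bases of smaller genes on the same strand and equals the gene's span in 86.4% of genes. Counting separated strands: 109 genes inside highly read genes of the opposite strand had a median of 0.12% of the host's RPKM.

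RPKM values were used as deposited, with a pseudocount of 0.05 RPKM in log2 ratios and genes under 300 bases left out. Estimated counts were rounded and tested with edgeR 4.0.16 (TMM, filterByExpr, quasi-likelihood test, Benjamini-Hochberg at 0.05) in R 4.3.3, and DESeq2 1.42.0 was an alternative. The procedure was tested on simulated data. Gene types, current symbols and promoters came from RefSeq tables, in which 28242 genes matched by symbol, 1386 by synonym and 17781 not at all.

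The members, the 36 gene lists (1074 symbols, 4 of them not found) and the tests were chosen with earlier results of these data known. Genes were named by rule: the 15 most transcribed; each list's defining members, its 4 highest others and up to 4 silent ones in alphabetical order; the 3 highest of each family; the 5 largest ratios each way between replicates and between assays, from 100.0 reads; and the 10 largest changes each way among genes that passed against the clones. Other genes are said to be chosen after their values were seen.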

Additional observations from a re-analysis of the deposited data

How the results depend on the processing

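The count of 8920 transcribed genes fell to 5451 at a threshold of 1 RPKM and ran from 7833 to 11815 under the other settings, with 10208 to 10496 when a Bru-seq WT replicate was left out. The 25962 silent genes became 15864 with a minimum length of 1500 bases, which leaves fewer genes to class, and 23551 to 28361 otherwise (26669 to 27242 with 1 WT library left out). The share of transcribed genes within 2-fold between replicates, 83.7%, was 90.1% with a pseudocount of 0.5 RPKM, 77.6% over all 31574 genes with a read and 84.5% with an offset for gene length. The comparison of WT with the clones was the least stable: 44 genes passed in edgeR, 1 with the 6 Bru-seq libraries only (765 at an unadjusted p under 0.05), 649 with no filter on low counts, 468 in DESeq2 and 6 to 114 with 1 library left out. With the replicate number as a block 67 passed, 40 of them shared. Same-numbered residuals correlated at 0.513 for WT and KO C22, 0.073 for WT and KO C28 and -0.367 for KO C22 and KO C28. The 2 lower values both involve KO C28, whose Bru-seq replicate 2 was the shallowest library. Over genes transcribed in WT, that library correlated (Pearson) at 0.779, 0.735 and 0.696 with BruUV-seq KO C22, KO C28 and WT. Its correlation was 0.646 with Bru-seq KO C28 replicate 1 and 0.425 to 0.585 with the other Bru-seq libraries. Why it lay nearer to BruUV-seq was not tested. Whether same-numbered libraries were handled together was not tested. The genes that passed against the clones kept their direction in every alternative. They were picked from these same libraries, and in all 44 WT lay wholly apart from the clones within each assay. A reversal was therefore unlikely from the start, and the kept direction is no separate support. No list median was marked as reversed, but changes of sign near 0 were not counted for the lists. Over all alternatives the 44 genes of that comparison stayed past the threshold in 427 values and missed it in 233. Depth limits the silent class in short genes, and 1 BruUV-seq library per line leaves that assay without a spread of its own.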

Other observations

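Bitter taste receptor genes, looked at after their values were seen, stood out among families of restricted expression, with 11 of 27 at 0.5 RPKM or more in both Bru-seq WT libraries. Of these, 9 lie on the minus strand of chromosome 12, with mean Bru-seq levels from 0.723 to 2.56 RPKM. None of the 9 lies inside a gene of the same strand that is read more. Longer genes that are read less were not looked for, so reads of such a gene cannot be told apart from those of the receptors. The highest, TAS2R30, was read at 3.13, 1.98 and 1.18 RPKM in Bru-seq WT replicates 1 and 2 and BruUV-seq WT. The other 2, TAS2R3 and TAS2R4 on chromosome 7, lie wholly inside another gene that is read more and runs the same way, and its reads cannot be told apart from theirs.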
